A study of Mus musculus with 3 samples.

Results

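The HA-ZFP57 library of mouse embryonic stem (ES) cells listed 3825 regions that lay far from every region of the 2 other libraries, and they are called ZFP57-only regions here. These members were chosen by position alone: a region was included when its start was at least 10 kb from every region start of the control list and of the KAP1 list on the same chromosome. The 3825 regions were 17.4% of the 22031 regions of the ZFP57 list (exact 95% binomial interval 16.9 to 17.9%) and belong to 88857 regions in the 3 lists together. The lists themselves chose these regions, so their number and their distance from the other lists are given as description.

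The series holds 3 chromatin immunoprecipitation sequencing (ChIP-seq) libraries, 1 per group, from cells grown in normal ES cell medium. For the control, chromatin of ES cells that express no transgene was precipitated with an anti-HA antibody. The ZFP57 library applied the same antibody to ES cells whose transgene was HA tagged ZFP57; the promoter of that transgene is not stated in the labels. For the KAP1 library, an antibody to KAP1 (RBCC) was applied to E14 cells, an established mouse ES cell line, again without a transgene. The labels do not name the ES cell line of the control and ZFP57 libraries, so a difference from the KAP1 library may also be one of cell lines. Each deposited list gives a chromosome, a start and an end in build mm9, with every region 150 bp wide and no score, so how strongly a region was enriched cannot be read from it. Without replicates no condition was tested against another, and intervals cover counting error only.

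ZFP57 is a KRAB zinc finger protein that binds a short methylated DNA motif and is known for preserving parental DNA methylation at imprinting control regions in ES cells and the early embryo. Such proteins silence DNA through the corepressor KAP1 (TRIM28), which brings in histone and DNA methylating enzymes. Sites of a KRAB zinc finger protein are therefore usually looked for together with KAP1.

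Most of the ZFP57 list lay near another list. Within 10 kb of both a control and a KAP1 region were 14545 ZFP57 regions, 66.02% of the list. A further 3104 (14.1%) lay near a control region and not near KAP1, and 557 (2.53%) lay near KAP1 and not near a control region. The 10 kb limit fell in a smooth stretch of distances. There were 162 ZFP57 regions with their nearest foreign region at 9000 to 10000 bp, just outside the rule, and 160 at 10000 to 11000 bp, just inside it. The closest member was 10013 bp away and the closest region left out was 9997 bp away.

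ZFP57-only regions were sparse beside the rest of the ZFP57 list. The rule left 1985 Mb of the genome open, meaning at least 10 kb from every control and KAP1 start, which was 76.9% of the length spanned by the 3 lists. This open length held 1.93 ZFP57 regions per Mb, compared with 30.6 per Mb in the 595 Mb near another list. The rule itself split the genome in this way, so the contrast is description only. The nearest control region was at a median of 33.7 kb from a member (quartiles 18.9 and 65.7 kb) and the nearest KAP1 region at 156 kb (61.4 and 349 kb). The members most remote from both lists were single regions. On the X chromosome the region starting at 103398918 had its nearest control region at 1038 kb and its nearest KAP1 region at 1395 kb, and on chromosome 15 the region starting at 42817381 had them at 695 and 1225 kb.

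Joined into loci wherever neighbouring starts lay within 5 kb, the 3825 regions formed 3724 loci, and nearly all of these held 1 region. There were 3631 single-region loci, 87 loci with 2 regions, 5 with 3, none with 4 and 1 with 5. The 93 loci with 2 or more regions thus made up 2.50% of the loci (2.02 to 3.05%) and held 194 regions, or 5.07% of the members (4.40 to 5.82%). They occurred on each of the 19 autosomes. There were 10 among 255 loci on chromosome 5, 9 among 198 on chromosome 11 and 8 among 309 on chromosome 1. Chromosomes 15 and 18 each had 7 among 144 loci. Chromosome 8 had 1 among 137 and chromosome 16 had 1 among 129. The 27 members on X and the 3 on Y were all single.

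The same rule was applied to the other lists to see how often regions found in 1 list alone lie together. KAP1-only regions were slightly sparser in their own open length (1.53 per Mb, 3009 regions), yet 18.4% of them lay in multi-region loci (17.01 to 19.8%), 3.62 times the ZFP57-only share. The largest KAP1-only locus held 10 regions. Control-only regions numbered 23997 and were denser (10.4 per Mb), with 18.4% in multi-region loci (17.9 to 18.9%). At 1 kb the shares with a neighbour of their class were 2.17% for ZFP57-only, 9.14% for KAP1-only and 4.93% for control-only regions, and at 10 kb they were 7.42%, 22.4% and 31.1%. ZFP57-only regions had the lowest share at each of these distances, while the order of the other classes depended on the distance. A denser class has more close neighbours even where its regions lie at random, and control-only regions were far denser than ZFP57-only regions (10.4 against 1.93 per open Mb). The lower share beside control-only regions is therefore no measure of clustering at equal density. The lists also differ in length, and their depths and thresholds are unknown, so these differences were not tested. The median distance to the nearest member of the class was 172 kb for ZFP57-only and 163 kb for KAP1-only regions, so these classes differed most in close neighbours.

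**Figure D1:**
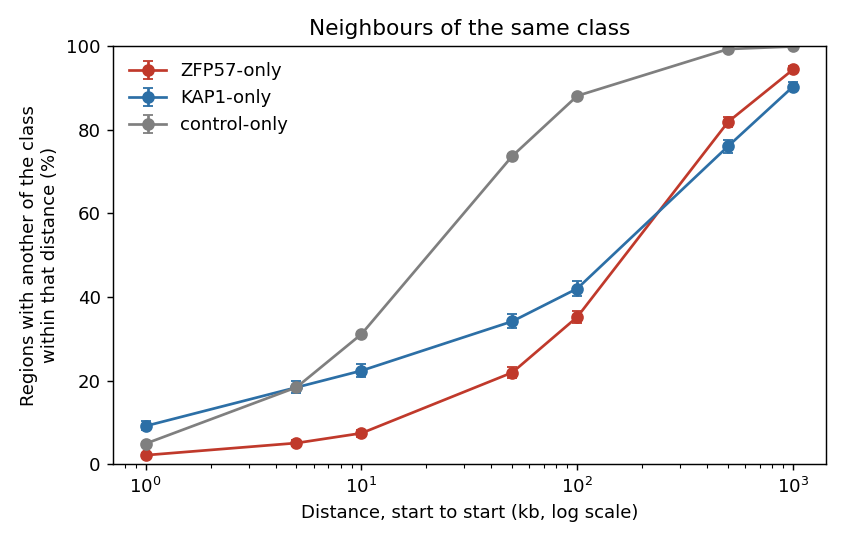
Percentage of regions (vertical axis) that have another region of the same class within the distance on the horizontal axis (kb, log scale) for ZFP57-only, KAP1-only and control-only regions, with exact 95% binomial intervals. ZFP57-only regions lie lowest up to 100 kb (35.2% there, against 42.01% of KAP1-only regions) and lie above KAP1-only regions at 500 kb (81.9% against 76.04%).

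One locus stood out by its number of regions. On chromosome 17 from 37143066 to 37147431, 5 ZFP57 regions lay within 4366 bp. The first began at 37143066, and the other 4 began at 37146510, 37146814, 37147141 and 37147282, so that 4 regions crowded into the last part of the locus at start-to-start gaps of 304, 327 and 141 bp after a gap of 3444 bp. The last 2 regions overlapped. The nearest control region was 75.7 kb away and the nearest KAP1 region 108 kb away. Within 50 kb of the locus there were 0 control and 0 KAP1 regions, and no ZFP57 region beyond the 5. Even when nearness to KAP1 was ignored, this was the only locus of 4 or more regions among the 4220 formed by the 4382 ZFP57 regions at least 10 kb from the control. The Zfp57 gene itself is on chromosome 17 in the RefSeq GRCm38 gene table. Where the gene lies relative to this locus was not analysed here, because no annotation of build mm9 was used, and since the ZFP57 library alone came from cells with the transgene, binding of the tagged protein and DNA of the transgene cannot be told apart here.

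The 5 loci with 3 regions differed in compactness. The tightest, on chromosome 15 from 89049609 to 89050334, held its regions at gaps of 312 and 264 bp, with the nearest control region at 20.5 kb and the nearest KAP1 region at 323 kb. On chromosome 2 from 112363527 to 112365223 the gaps were 520 and 1027 bp, and both other lists were distant (43.2 kb for control, 179 kb for KAP1). On chromosome 1 from 21338670 to 21340586 the gaps were 1408 and 359 bp, and this locus was only just outside the reach of KAP1, whose nearest region lay at 10.4 kb. On chromosome 13 from 68343367 to 68346530 the gaps were 664 and 2350 bp, and control and KAP1 regions lay at 14.2 and 13.0 kb. The loosest, on chromosome 15 from 97773551 to 97778257, had gaps of 4133 and 424 bp, with control at 22.9 kb and KAP1 at 201 kb.

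Among the 87 loci with 2 regions, 8 consisted of regions that overlapped or touched, with starts 89 to 136 bp apart, and 22 had starts within 500 bp. The closest pair was on chromosome 19 from 9686895 to 9687133 (starts 89 bp apart, control at 10.4 kb), followed by chromosome 13 from 99384196 to 99384436 (91 bp, control at 13.7 kb). Chromosome 8 from 82485806 to 82486067 followed at 112 bp, with control at 10.98 kb. The pair on chromosome 15 from 101347209 to 101347471 (113 bp) was the one nearest to KAP1, at 10.2 kb. Pairs with more distance from the other lists were chromosome 9 from 49666622 to 49666887 (116 bp, control at 47.7 kb, KAP1 at 254 kb) and chromosome 12 from 26741445 to 26741771 (177 bp, 57.3 and 93.7 kb). Chromosome 17 from 4626248 to 4626633 (236 bp) lay 37.9 kb from control and 615 kb from KAP1. The remaining pairs among the 20 leading loci lay on chromosomes 19, 2, 13, 15, 16 and 3, with starts 122 to 223 bp apart. When touching regions were merged, 85 multi-region loci remained, with 4.64% of the merged regions. Whether an overlapping pair is 1 site listed more than once was not tested.

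**Figure D2:**
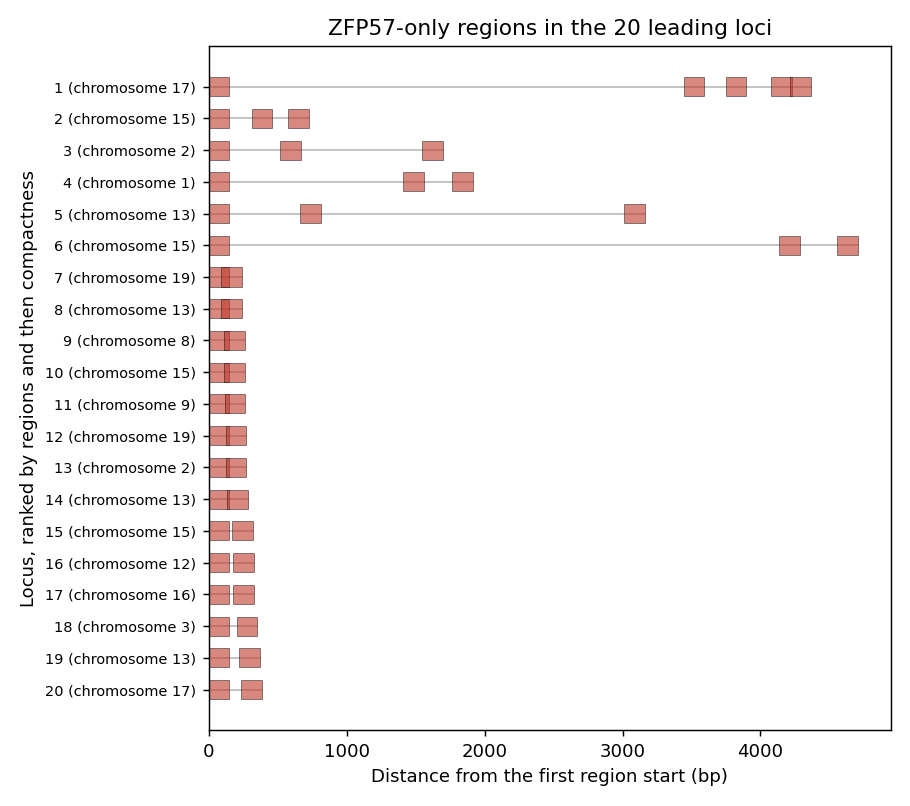
Regions (boxes, drawn to scale at 150 bp) of the 20 loci with the most ZFP57-only regions, ranked by number of regions and then by the distance from first to last start, against the distance from the first start (bp); darker red marks overlap. The locus on chromosome 17 holds 5 boxes, 4 of them crowded at its right end, ranks 2 to 6 hold 3 boxes, and ranks 7 to 14 are overlapping pairs.

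The spacing inside multi-region loci was wide on the whole. The 101 start-to-start gaps ran from 89 to 4951 bp with a median of 1435 bp, and 29 of them (28.7%, 20.1 to 38.6%) were 500 bp or shorter. In KAP1-only loci 28.6% of 304 gaps were that short (23.6 to 34.1%), and in control-only loci 14.4% of 2351 (13.0 to 15.9%). The median gap was 1059 bp in KAP1-only loci and 2054 bp in control-only loci. When ZFP57-only regions did lie together, their gaps were thus short about as often as those of KAP1-only regions, with overlapping intervals.

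Regions in multi-region loci were less remote from the other lists than single regions, by median. Neighbours within a locus were counted separately, and the rule itself used these distances, so the medians are description. The nearest control region was at a median of 25.2 kb for the 194 regions in multi-region loci and 34.2 kb for the 3631 single regions. For KAP1 the medians were 128 and 158 kb. Moving the limit outwards lowered the multi-region share from 5.07% at 10 kb to 4.34% at 20 kb (116 of 2670 regions), 3.54% at 50 kb (41 of 1157) and 2.38% at 100 kb (10 of 421). At 200 kb it was 3.15% (4 of 127, 0.865 to 7.87%). The intervals overlap between neighbouring limits, and each limit keeps a part of the same members. The 50 kb limit left 19 multi-region loci, among them the 5-region locus on chromosome 17. Beyond 100 kb from both lists 5 remained, each with 2 regions. The most remote was chromosome 9 from 82704414 to 82704827, with starts 264 bp apart, control at 312 kb and KAP1 at 1138 kb. Next came chromosome 14 from 108286263 to 108287326, with starts 914 bp apart, at 223 and 605 kb.

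ZFP57 loci away from the control had KAP1 nearby more often when they held 2 or 3 regions than when they held 1, by share. Among loci formed by the 4382 ZFP57 regions at least 10 kb from the control, a KAP1 region lay within 10 kb of 441 of 4072 single-region loci (10.8%, 9.89 to 11.8%), 49 of 136 loci with 2 regions (36.03%, 27.98 to 44.7%) and 6 of 11 loci with 3 (54.5%, 23.4 to 83.3%). The only larger locus, with 5 regions on chromosome 17, had no KAP1 region within 10 kb. Counted by region, the shares were 10.8% of single regions and 37.4% of 310 regions in multi-region loci (32.01 to 43.1%). The ZFP57-only set is what was left after loci with KAP1 had been taken out, and this removed 10.8% of the single loci and 37.2% of the 148 multi-region loci. A locus with several regions spans more sequence, but the shares by region compare single regions of 150 bp and were close to the shares by locus. The cause of the difference was not tested.

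Some ZFP57-only regions recurred at the same spacing, as the map of chromosome 5 loci shows. On chromosome 5, 3 loci from 95179101 to 95181098, from 95509277 to 95511274 and from 95826769 to 95828766 each held 2 regions with starts exactly 1848 bp apart. Each was preceded by a further ZFP57-only region at 15831, 15787 and 15802 bp before its first start. The loci were 330176 and 317492 bp apart. Control regions followed the first and the second locus at nearly the same places, 15484 and 15482 bp after the last start, with gaps of 10281 and 10279 bp between the next control regions. After the last locus the next control region was 66987 bp away. These 9 regions supplied most of the 11 members in the 1 Mb window from 95 Mb. Whether duplicated sequence gave the 3 loci shared reads was not tested. The other 2 gap lengths that occurred more than once, 3173 and 4854 bp, each joined loci on different chromosomes.

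**Figure D3:**
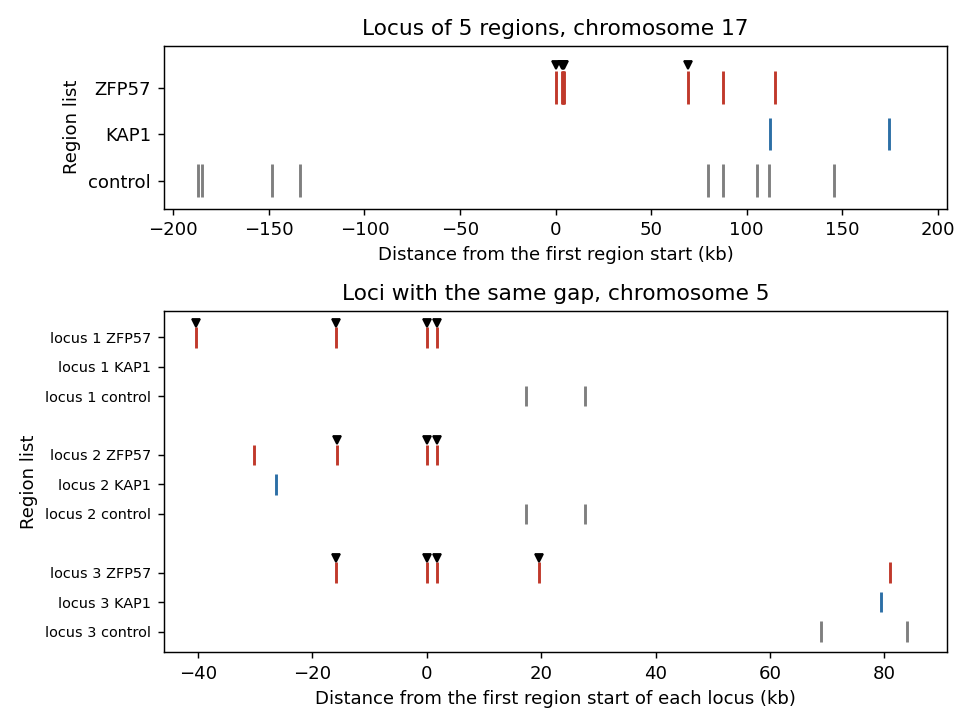
Regions of the ZFP57, KAP1 and control lists (vertical ticks; black triangles mark ZFP57-only regions) against the distance from a first region start (kb), for the locus of 5 regions on chromosome 17 (top) and the 3 chromosome 5 loci with a gap of 1848 bp (bottom). The 5 regions stand with 0 control and 0 KAP1 regions within 50 kb, and the 3 loci line up with each other and with the ZFP57-only region before each of them.

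ZFP57-only regions were spread over all autosomes, at densities that differed between chromosomes. Per open Mb the autosomal median was 2.08, and the highest value was 1.80 times the lowest. Chromosome 19 was highest at 2.89 per open Mb (exact 95% Poisson interval 2.41 to 3.45, 125 regions), followed by chromosomes 11 (2.49, 2.16 to 2.85) and 5 (2.43, 2.15 to 2.75). The lowest were chromosomes 8 (1.61, 1.35 to 1.90, 138 regions), 12 (1.67, 1.41 to 1.95) and 16 (1.75, 1.46 to 2.08). The share of ZFP57-only regions on a chromosome did not always follow its share of the whole list. Chromosome 17 held 10.5% of the ZFP57 list and 4.0% of the ZFP57-only regions, though its ZFP57-only density ranked 4 of 19 (2.37 per open Mb). Of its listed regions 6.61% were ZFP57-only, whereas on chromosome 18 this percentage was 37.8% and on chromosome 19 it was 37.7%.

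Chromosome 8 ranked differently in the 3 classes. It was 19 of 19 autosomes for ZFP57-only regions, 2 for KAP1-only regions (2.14 per open Mb, 1.84 to 2.47) and 1 for control-only regions (18.3 per open Mb, 17.5 to 19.1). On chromosome 8 the ZFP57-only density lay below the KAP1-only density, as it also did on chromosome 13 (2.08 against 2.16), with overlapping intervals on both. Over the other 17 autosomes ZFP57-only regions were the denser of these classes. Number of chromosome copies per culture was not measured, and its part was not tested.

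X held few ZFP57-only regions. Its 27 regions gave 0.172 per open Mb (0.114 to 0.251), and the autosomal median was 12.04 times as high. KAP1-only regions reached 0.451 per open Mb on X (0.352 to 0.569), and their autosomal median was 3.59 times as high. Control-only regions reached 0.621 (0.504 to 0.757), with an autosomal median 16.9 times as high. The ZFP57-only and KAP1-only intervals on X lay apart, but the cultures, antibodies and list lengths differ and the difference was not tested. X had 1015 regions in the whole ZFP57 list, of which 2.66% were ZFP57-only, so the X regions of that list lay almost entirely near another list. Y held 3 ZFP57-only regions, and the mitochondrial genome, which is fully within 10 kb of other lists, held 0.

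**Figure D4:**
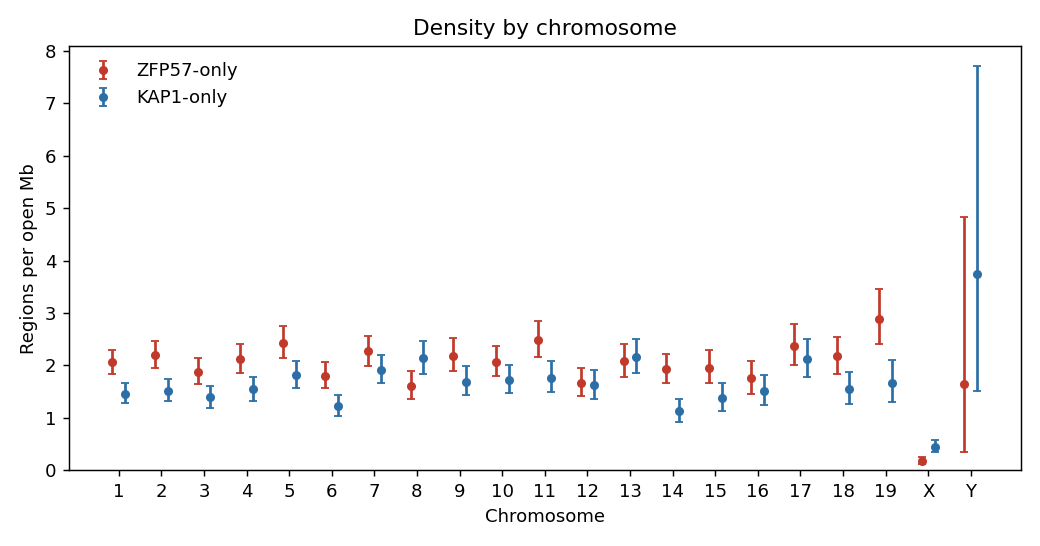
ZFP57-only and KAP1-only regions per open Mb (vertical axis, with exact 95% Poisson intervals) by chromosome. ZFP57-only values lie between 1.61 and 2.89 on the autosomes and at 0.172 on X, and fall below the KAP1-only value on autosomes 8 and 13 alone.

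Across the 19 autosomes the ZFP57-only density went with the number of protein-coding genes per Mb (Pearson r = 0.69, Spearman rho = 0.71), where gene numbers came from the RefSeq GRCm38 table and chromosomes share 1 library. For KAP1-only regions the values were 0.40 and 0.46, and for control-only regions 0.54 and 0.78. Without chromosome 8 they were 0.73 and 0.77 for ZFP57-only, 0.46 and 0.48 for KAP1-only and 0.79 and 0.82 for control-only regions, so the order of r between ZFP57-only and control-only regions turned with that chromosome. Between ZFP57-only and control-only densities r was 0.20 and rho 0.53 over all 19, and 0.68 and 0.80 over the 18 without chromosome 8, so chromosome 8 also decided this r. These correlations over chromosomes are descriptions of 3 libraries, not tests.

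Along the chromosomes ZFP57-only regions were densest at the distal end. Each autosome was cut into 10 equal parts in the order of its coordinates, which in the mouse run from the centromere. In the last part the density was 2.99 per open Mb (2.73 to 3.27, 486 regions), and in the other parts it ranged from 1.68 to 2.30. Control-only regions were also densest there, at 16.5 per open Mb (15.95 to 17.1) against 9.51 in the first part. KAP1-only regions were densest in the first part (2.45, 2.22 to 2.68) and the second (2.38), with 1.17 in the eighth and 1.99 in the last. In the first part the ZFP57-only value was 2.07 (1.87 to 2.29), in the second it was 2.003 and in the parts from the third to the sixth it was 1.68 to 1.96. The difference in profile between the classes was not tested.

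**Figure D5:**
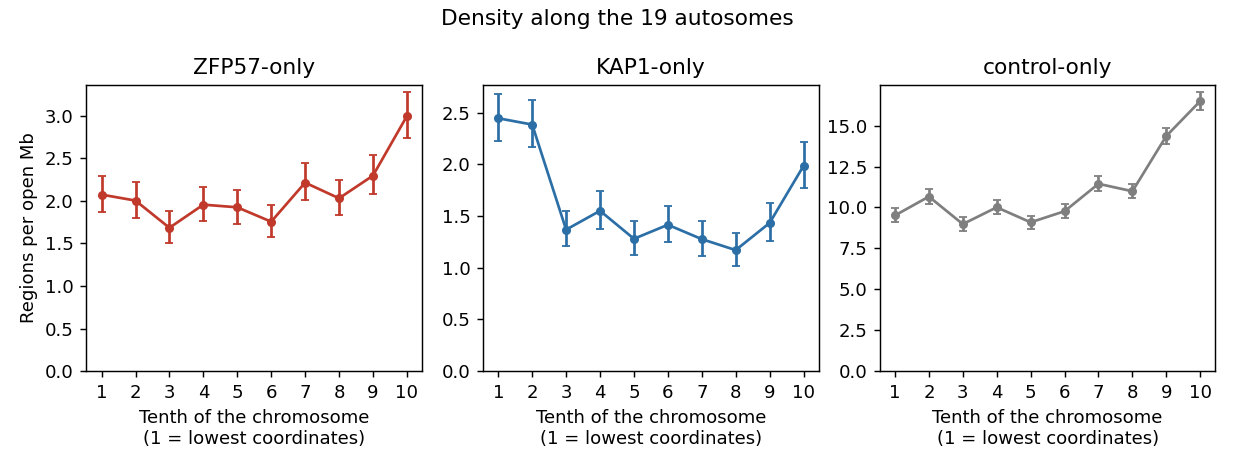
Regions per open Mb (vertical axis, own scale in each panel, from 0) in 10 equal parts of the autosomes, pooled over 19 autosomes, with exact 95% Poisson intervals. ZFP57-only regions are highest in part 10 (2.99), as are control-only regions (16.5), whereas KAP1-only regions are highest in part 1 (2.45).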

How the data were processed

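Regions of 3 ChIP-seq libraries (HA control, HA-ZFP57, KAP1) were analysed, 1 library per group. Per the submitters' processing notes, Bowtie and build mm9 were used; caller, threshold, depth and the handling of multiply mapping reads are not given in the sources used. The deposited files hold positions only (bp, another unit than counts or scores). Starts are printed counted from 1.

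Distances ran from start to start. ZFP57-only regions lay 10 kb or more from both other lists, and regions within 5 kb were joined into loci. Open length is the part of a chromosome, between the lowest and highest listed position, that the rule leaves. Intervals are exact 95% binomial (Clopper-Pearson) or Poisson intervals. They ignore clustering and which sequence short reads can reach. The 20 loci with the most regions, ties by compactness, and the 3 highest and 3 lowest autosomes were named by rule. Remote, repeated-gap and window examples were chosen after their values were seen. The members and rules were chosen with earlier results of these data known. Gene names, motifs and sequences of regions need mm9 and are not reported here. The code was tested on simulated lists. Python 3.11.15, numpy 2.4.6, pandas 2.3.3, scipy 1.17.1 and matplotlib 3.10.9 were used.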

Additional observations from a re-analysis of the deposited data

How the results depend on the processing

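No paired analysis was possible because there was 1 library per group, and no replicate could be left out. The number of ZFP57-only regions stayed within 1.5 times 3825 under 5 of 6 alternatives and was 1157 at 50 kb or more from both lists. The 93 multi-region loci became 40 when regions within 1 kb were joined and 55 within 2 kb. They became 55 at 20 kb or more from both lists and 19 at 50 kb or more, where fewer regions remained. The multi-region share also fell at these limits, from 5.07% to 4.34% and 3.54%, and the cause was not tested. The ratio of the control-only to the ZFP57-only multi-region share was 3.63, but 2.27 with joining at 1 kb and 3.07 at 2 kb; the cause was not tested. The KAP1-only share stayed 3.01 to 4.21 times the ZFP57-only share over the 4 alternatives run. The autosomal median over X was 9.68 per Mb of span and 7.82 to 12.04 under the alternatives. Open length and the omission of the 5-region locus were added after seeing the data. The sequence, motif and nearest-gene steps were not run. Without scores, whether single regions are weaker than those in multi-region loci was not tested.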

Other observations

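At the scale of 1 Mb, ZFP57-only regions were scattered with a few fuller windows. Of 2242 autosomal windows with at least 0.5 Mb of open length, 655 (29.2%) held 0 ZFP57-only regions, the mean was 1.55 and the variance was 1.49 times the mean. Windows differed in open length and autosomes in density, and both can raise this ratio without local clustering. In 17 of them there were 7 or more. The fullest were chromosome 4 from 115 to 116 Mb and chromosome 5 from 95 to 96 Mb, with 11 each (exact 95% Poisson interval 5.49 to 19.7). On chromosome 4 these were 10 loci spread over 855 kb, 9 of them single regions, and the single pair began at 115283897. The windows were chosen after their values were seen.

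Chromosome 14 from 53 to 56 Mb was the longest run of windows with 7 or more members each. It held 23 ZFP57-only regions (14.6 to 34.5), all single, at 9.21 per open Mb. There were 2 KAP1-only and 20 control-only regions in the run. Its first Mb also showed repetition: the members starting at 53440634, 53537087 and 53546764 recurred at 53751417, 53848061 and 53857726, shifts of 310.8, 311.0 and 311.0 kb. With a tolerance of 500 bp around a shift of 311.0 kb, 4 of 11 ZFP57, 6 of 10 control and 0 of 2 KAP1 regions of the earlier stretch had a counterpart of their own list. That shift was read from the ZFP57-only members just named, so the ZFP57 count was partly fixed beforehand. Whether the stretches are copies of 1 sequence was not tested.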
